A study of Mus musculus with 19 samples.

Results

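Cytosolic ribosomal protein genes were read in bulk RNA of the hippocampus (left side) from 19 mice at 4 months of age, with 1 library per animal. Members were the protein-coding genes of the count table with symbols of the form Rpl or Rps and a number, together with Rplp0, Rplp1, Rplp2 and Rpsa, without the Rps6k kinases and without pseudogenes. This gave 80 of the 20655 gene IDs in the table, of which 48 encode proteins of the large (60S) subunit and 32 proteins of the small (40S) subunit. Rpl10l and Rpl39l fit the same name pattern but had no row in the count table, and Rps4l is annotated as a pseudogene and was not a member. The low-count filter kept 79 members. Rpl3l, the muscle form of Rpl3, was the exception, with 60 counts over all libraries and a level of 0 to 0.407 CPM (counts scaled to a common library size, with TMM factors).

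All animals were hemizygous for the 5xFAD transgenes (label 5xFADHEMI), which express mutant human amyloid precursor protein and presenilin 1 in neurons from the Thy1 promoter and give amyloid plaques early in life. The controls carried 5xFAD alone (5 females and 5 males). The other animals were also homozygous for a clusterin knock-in, labelled CLUh2kbKIHO (4 females and 5 males, called knock-in here). No group lacked the 5xFAD transgenes, and the labels do not give the sequence of the knock-in. The genotypes have no overlap in their animal and library numbers, so that genotype and anything those numbers follow cannot be told apart. Clu itself differed by 0.13 on the log2 scale between genotypes (SE 0.10, edgeR adjusted p = 0.665), and counts against mouse transcripts need not include human sequence, so that Clu does not check the labels.

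Ribosomal proteins assemble with ribosomal RNA in the nucleolus into the subunits that translate messenger RNA, and nearly all are needed in equal numbers. Their messenger RNAs are short, abundant and carry a 5′ terminal oligopyrimidine (TOP) start, a C at the cap followed by a run of C and T (U in the RNA). Through this run the kinase complex mTORC1 and the RNA-binding protein Larp1 set how much of the RNA is translated, and in neurons part of these RNAs is carried into dendrites and axons. RNA levels as measured here therefore say nothing of translation. In bulk tissue, more cells of a type and more RNA per cell cannot be told apart.

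The promoters of some members are shown, to let a pyrimidine tract be seen beside the start. All of these but Rpl28 are named with values below. RefSeq windows (GRCm38.p6, 250 bases before to 50 after a transcription start) were matched by symbol for 60 of the 80 members, in 72 windows. Each sequence below runs from 40 bases before the start to 20 from the start on, 5′ to 3′ on the transcribed strand. Capitals mark a pyrimidine tract, searched as a C followed by at least 7 further C or T within 50 bases on either side of the start. Rps6 (chr4:86857348-86857407, minus strand), Rps27 (chr3:90213629-90213688, minus), Rpl28 (chr7:4792925-4792984, plus) and Rpl31 (chr1:39367811-39367870, plus) held a tract in the stretch shown. Rplp0 (chr5:115559427-115559486, plus) and Rps4x (chrX:102189372-102189431, minus) had none, and that of Rpl12 (chr2:32961672-32961731, plus) began 39 bases after the start, past the stretch shown. The tract of Rpl31 lay wholly before the annotated start.
Rps6: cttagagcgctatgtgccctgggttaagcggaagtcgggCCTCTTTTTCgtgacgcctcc
Rps27: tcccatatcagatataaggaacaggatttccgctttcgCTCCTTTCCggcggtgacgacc
Rpl28: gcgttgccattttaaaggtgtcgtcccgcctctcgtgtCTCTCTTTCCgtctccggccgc
Rpl31: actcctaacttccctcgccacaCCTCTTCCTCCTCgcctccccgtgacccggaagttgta
Rplp0: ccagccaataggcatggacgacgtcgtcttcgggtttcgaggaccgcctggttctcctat
Rps4x: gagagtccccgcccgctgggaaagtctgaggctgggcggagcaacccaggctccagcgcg
Rpl12: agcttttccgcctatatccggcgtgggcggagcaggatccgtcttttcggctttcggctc

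A tract stood in 57 of the 72 member windows (79.2%), against 28.8% of all 32851 windows in the table. By gene it stood in 33 of 36 large-subunit and 18 of 24 small-subunit members. The letters CCGGAA, the core bound by ETS factors such as GABP, stood on either strand of the whole window in 47.2% of member windows and 14.9% of all. ATGGCG, the core bound by YY1, stood in 27.8% and 8.93%. TATAAA, the TATA box letters, went the other way, with 8.33% and 13.6%. These are matches of letters only, and a window without one says nothing of the factor.

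Total counts ran from 17278276 to 25200966 per library, and members took 1.07% of them in 5xFAD male 6 to 1.66% in knock-in male 7. Neuron, astrocyte, oligodendrocyte and hippocampal field markers were above 0 in every library. Choroid plexus markers, from tissue of the neighbouring ventricle, summed to between 38.2 and 11645 CPM. No 2 libraries of a group were alike within counting noise (36 pairs, chi-square per gene at least 9.68).

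Among members, levels per length (CPM per kb of the median annotated transcript) spanned from 10.8 to 848, with a median of 220 over the 79 tested. The highest was Rplp1, at 848 CPM per kb, which with Rplp2 forms the acidic stalk that recruits elongation factors. Rpl13a followed at 755 and Rpl3, which lies next to the peptidyl transferase centre, at 584. Rps14 stood at 428 and Rps24 at 424. These orders rest on the annotated lengths, since with the longest transcript Rpl13a came to 357, Rpl3 to 353 and Rps24 to 138 CPM per kb.

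The lowest tested members per length were Rpl12 (10.8 CPM per kb), Rps27l (18.6), Rpl5 (25.9), Rps27 (29.2) and Rps20 (30.4). Rpl5 binds 5S ribosomal RNA together with Rpl11, and Rpl12 sits at the base of the stalk. The value of Rps20 is divided by an annotated transcript of 3706 bases. Rps27rt, a copy of Rps27 described below, took on average 87.8% of the summed CPM of the pair. Rpl5 shared 41.7% of its 31-base words with Fam69a, another counted gene. The ranks of Rps27 and Rpl5 are therefore uncertain. The paralogue pairs differed in balance. Rpl36a stood at 87.5 and Rpl36al at 58.2 CPM per kb, Rps27 at 29.2 and Rps27l at 18.6. Rpl36a and Rps27 are given without their counted copies, so these balances are uncertain as well. Rpl3l stood at 0.154 against the 584 of Rpl3.

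Large and small subunit genes were at like mean levels and moved largely together from library to library. The mean log2 CPM of the 47 tested large-subunit genes was 6.98 ± 0.20 in 5xFAD females (SD, n = 5), 7.11 ± 0.21 in knock-in females (SD, n = 4), 6.90 ± 0.21 in 5xFAD males (SD, n = 5) and 7.11 ± 0.22 in knock-in males (SD, n = 5). That of the 32 small-subunit genes was 6.90 ± 0.17, 7.12 ± 0.23, 6.94 ± 0.17 and 7.13 ± 0.28 in the same order. Each group reached into the range of the others, and both the lowest and the highest small-subunit means belonged to knock-in males (6.73 in male 10 and 7.45 in male 7).

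**Figure D1:**
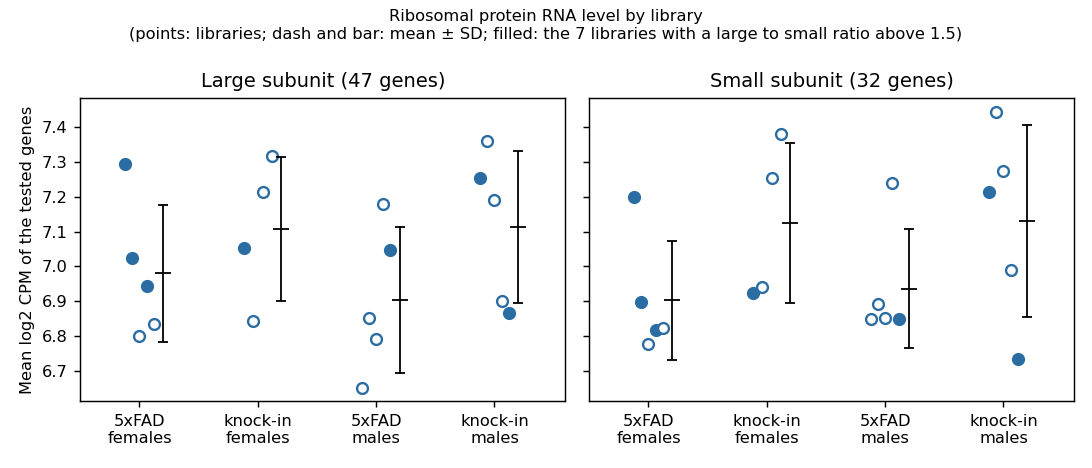
Mean log2 CPM of the 47 large-subunit and the 32 small-subunit genes (y axis) in each library, by group (x axis); points are libraries, the dash and bar give the mean ± SD, and filled points are the 7 libraries with a large to small subunit ratio above 1.5. Knock-in group means lie above those of 5xFAD in both sexes, but the libraries overlap.

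One feature of the libraries cut across the groups. The counts of large-subunit members over those of small-subunit members lay between 1.57 and 1.60 in 7 libraries and between 1.29 and 1.48 in the other 12, with none between. The 7 were knock-in female 1, knock-in males 6 and 10, 5xFAD females 1, 2 and 4, and 5xFAD male 10, so that every group held libraries of both kinds. The split was seen in the members' own counts and is given as a description, with no test. Their mean level over all members (6.81 to 7.26 log2 CPM) lay within the range of the other 12 (6.73 to 7.39), as did total counts.

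Single members split in the same way, in opposite directions. Rpl31, a protein at the exit of the peptide tunnel, stood at 107 to 117 CPM in the 7 libraries and at 42.5 to 87.2 CPM in the 12. Rpl36a stood at 48.7 to 78.5 against 14.4 to 44.2 CPM, and Rpl27 at 87.7 to 143 against 49.96 to 83.1 CPM. Rpl39, which also lines the exit tunnel, went the other way, with 28.1 to 47.3 CPM in the 7 and 51.3 to 90.7 CPM in the 12. Rps12 likewise stood at 96.9 to 149 against 162 to 262 CPM. In all, 6 of 79 members had CPM values that did not overlap between the 7 and the 12 libraries (Rpl15, Rpl27, Rpl31 and Rpl36a higher, Rpl39 and Rps12 lower), beside 1.42% of all 18204 genes tested (0.61% higher and 0.808% lower). Since the members' ratio chose the libraries, nothing is read from that difference.

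**Figure D2:**
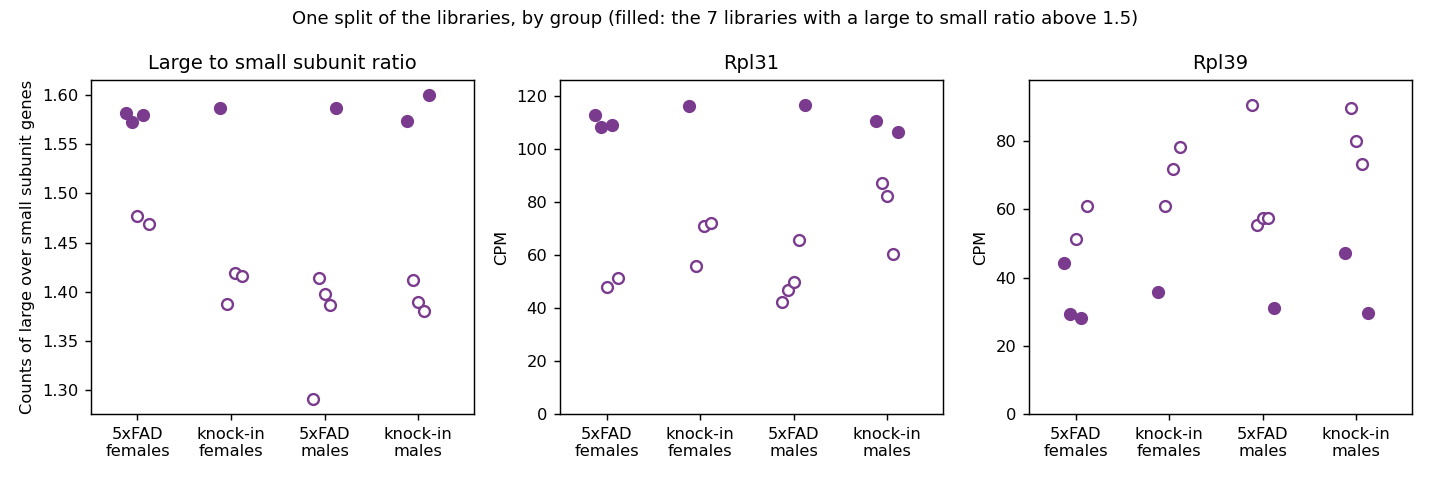
Ratio of large- to small-subunit counts (left), and CPM of Rpl31 (middle) and Rpl39 (right), in each library by group; filled points are the 7 libraries with a ratio above 1.5. In every group the filled points lie above the open ones for Rpl31 and below them for Rpl39.

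After the mean of all members was taken off each library, 26 of 79 members separated the 2 kinds of library, beside 1.31% of all genes treated the same way. The members' ratio chose the libraries, so nothing is read from that count either. Of the 32 small-subunit members, 13 were lower in all 7 libraries and 3 higher, and of the 47 large-subunit members 3 were lower and 7 higher. Rps3a1, Rps4x, Rps27a and Rps29 were among the small-subunit members that were lower, and Rps13, Rps16 and Rps23 were the 3 that were higher. The difference between the kinds of library had a Pearson correlation of 0.24 with the GC content of the members' transcripts (Spearman 0.32, n = 79 members, which share libraries).

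A value not taken from the members was set beside this split. The slope of 6093 other protein-coding genes on GC content, in log2 CPM per 10 percentage points, was 0.01 to 0.17 in the 7 libraries and -0.35 to 0.10 in the 12. The lowest slope was that of 5xFAD male 6, which also had the lowest ratio (1.29). The ranges overlap, and the part of GC content in the split was not tested. The labels name both NovaSeq and HiSeq instruments without saying which library ran on which.

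Members differed widely in how closely they followed the mean of all members. Their spread about it (SD over the 19 libraries of the log2 difference) had a median of 0.171, from 0.057 for Rpl14 to 0.823 for Rps27. Rpl14, Rpl9, Rpl32 and Rpl18 were among those that kept closest to it. Rps27, Rpl36a, Rpl39, Rpl10 and Rpl31 strayed most, and 3 of these 5 (Rpl36a, Rpl39 and Rpl31) are among those that split the libraries above.

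Ribosomal protein genes have many processed copies in the genome, and reads that match several of them can be shared out by the counting. A median of 45.7% of a member's 31-base words (31-mers) also stood in annotated transcripts of other genes. For 34 members at least 50% did, and for 6 under 10%. The 28 members that shared at least 20% of their 31-mers with other genes of the count table had a median spread of 0.221, and the other 51 had 0.162. Over the 79 tested members, spread had a Pearson correlation of 0.36 with the share in counted genes. With the share in any annotated gene it was 0.05. The search took either strand and did not leave out genes at the same locus, so a gene that shares 31-mers need not be a processed copy. Levels and folds of members that share 31-mers with counted genes are uncertain.

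Rps27, a zinc-finger protein of the small subunit, had the largest spread and is given with its copy. It stood at 17.5, 6.10, 7.03, 7.99 and 9.40 CPM in 5xFAD females 1 to 5, and at 6.06, 7.80, 7.33 and 12.5 CPM in knock-in females 1, 2, 4 and 5. In 5xFAD males 6 to 10 it stood at 9.65, 6.40, 8.34, 10.8 and 1.91 CPM, and in knock-in males 6 to 10 at 55.0, 13.9, 13.6, 9.79 and 9.88 CPM. Knock-in male 6 thus stood far above all others, and 5xFAD male 10 far below. Rps27rt, a retrogene copy that shares 49.8% of the 31-mers of Rps27, stood at 83.0 ± 21.2 CPM over all libraries (SD, n = 19), and its lowest library was knock-in male 6, at 42.5 CPM. The sum of both was 94.6 ± 20.9 CPM (SD, n = 19), with an SD on the log2 scale of 0.32 in place of 0.90 for Rps27 alone.

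**Figure D3:**
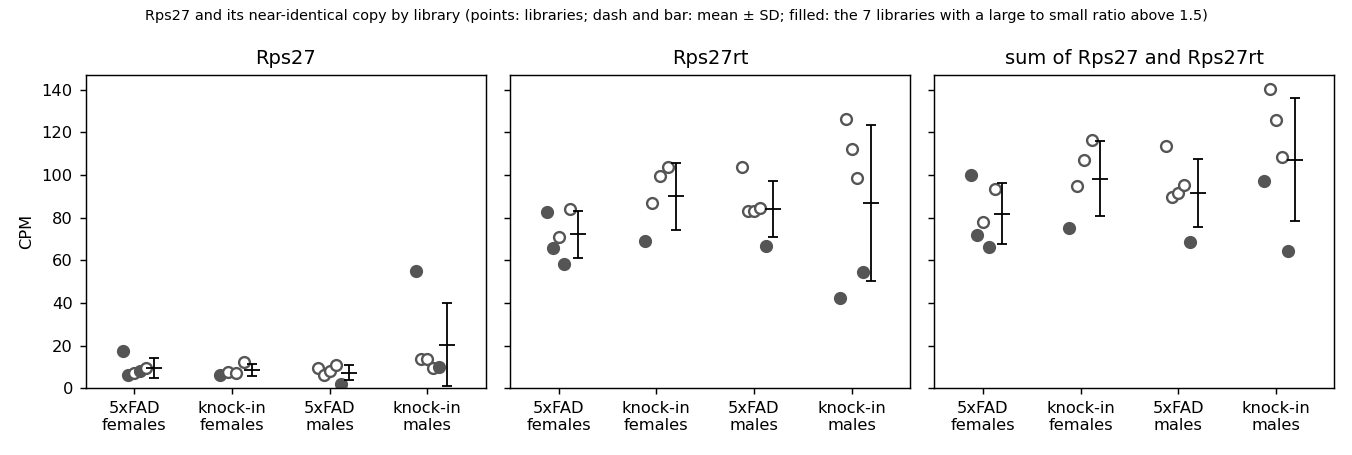
CPM of Rps27 (left), of its copy Rps27rt (middle) and of their sum (right) in each library by group; points are libraries, the dash and bar give the mean ± SD, and filled points are the 7 libraries with a large to small subunit ratio above 1.5. Knock-in male 6 is the highest for Rps27 (55.0 CPM) and the lowest for Rps27rt (42.5 CPM), and lies inside the range of the other libraries in the sum.

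Of the 20 members with a counted copy on another chromosome, the log2 SD over libraries fell by more than 0.05 in 10 when copies were added. In the other 10 it fell by at most 0.04 or did not fall, and 6 of these had copies under 1 CPM. Reads shared out between copies and unequal changes of the genes were not told apart. Adding Rpl10-ps3 to Rpl10, which joins the large subunit last, took the log2 SD from 0.40 to 0.20. Adding the copy of Rpl31 took it from 0.52 to 0.24, that of Rpl36a from 0.63 to 0.37 and that of Rpl10a from 0.32 to 0.22. Rps12, whose added copy Rps12-ps1 stood at 0.133 CPM, kept a log2 SD of 0.46. It shares 64.9% of its 31-mers with Gm44510, a counted gene that was not added, so that read sharing of Rps12 stays untested.

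Genotypes were compared to ask what the clusterin knock-in changes on a 5xFAD background. No member passed edgeR's quasi-likelihood test at an adjusted p of 0.05, with 0 of 79 called beside 0.022% of all genes (4 of 18204). At an unadjusted p under 0.05 there were 21 of 79 members, all higher in knock-in animals, beside 11.9% of all genes at that level (6.15% higher). DESeq2 and limma-voom gave 23 and 13 at that level (13.3% and 11.8% of all genes). Both also called 0 members, with their shares of all genes called not worked out. The median log2 change of the members was 0.19, and 78 of 79 were above 0, with a median over all genes of -0.00. The large subunit had a median of 0.18 and the small subunit one of 0.21. No member had all knock-in above all 5xFAD animals, beside 0.00549% of all genes whose groups did not overlap. Members share libraries and move together, so the number above 0 is no count of independent results.

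**Figure D4:**
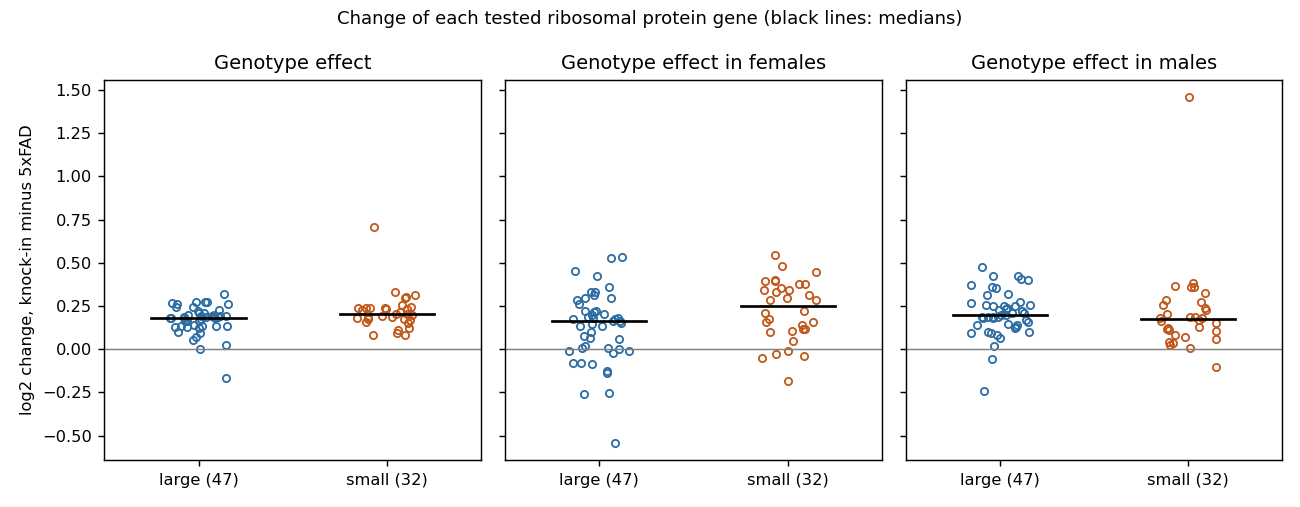
The log2 change from 5xFAD to knock-in (y axis) of each of the 47 large-subunit and 32 small-subunit genes tested, over both sexes (left), in females (middle) and in males (right); circles are genes and black lines medians. Most genes lie above 0 in each panel, but none passed the test, and the highest point over both sexes and in males is Rps27.

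Rplp0, the scaffold of the stalk, had one of the lowest p values of the large subunit. It stood at 229, 228, 209, 199 and 208 CPM in 5xFAD females 1 to 5, and at 204, 222, 203, 246 and 233 CPM in 5xFAD males 6 to 10. In knock-in females 1, 2, 4 and 5 it stood at 228, 242, 295 and 313 CPM, and in knock-in males 6 to 10 at 243, 287, 267, 224 and 197 CPM. Of the 9 knock-in animals, 4 lay above every 5xFAD animal and male 10 lay below all of them. The log2 change was 0.23 (SE 0.08, edgeR adjusted p = 0.293).

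Rpl3 stood at 483, 441, 426, 402 and 429 CPM in 5xFAD females 1 to 5, and at 423, 446, 441, 468 and 465 CPM in 5xFAD males 6 to 10. It stood at 466, 493, 588 and 644 CPM in knock-in females 1, 2, 4 and 5, and at 458, 581, 549, 454 and 399 CPM in knock-in males 6 to 10. The groups overlap, since knock-in male 10 was again the lowest of all and 5 of 9 knock-in animals lay above every 5xFAD animal. The log2 change was 0.22 (SE 0.08, edgeR adjusted p = 0.321). Rpl23a, at the exit tunnel, and Rpl6 each had a change of 0.27 (SE 0.10, edgeR adjusted p = 0.302 and 0.328).

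Rps27l, a close relative of Rps27 known as a target of p53, had the lowest p of all members. It stood at 9.42, 10.6, 8.18, 7.52 and 6.79 CPM in 5xFAD females 1 to 5, and at 6.97, 7.68, 8.81, 8.14 and 8.51 CPM in 5xFAD males 6 to 10. It stood at 9.53, 10.9, 14.1 and 10.2 CPM in knock-in females 1, 2, 4 and 5, and at 10.9, 12.1, 8.87, 9.39 and 7.28 CPM in knock-in males 6 to 10. The groups overlap, with 4 of 9 knock-in animals above every 5xFAD animal. The log2 change was 0.33 (SE 0.11, edgeR adjusted p = 0.284), from 0.28 to 0.39 as each library was left out. None of its 31-mers stood in another gene of the count table.

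The largest change was that of Rps27, at 0.70. Without knock-in male 6 it was 0.25, and with the counts of Rps27rt added it was 0.24 (edgeR adjusted p = 0.447). Rpl39 followed Rps27 and Rps27l at 0.32. Rpl12 was the only member below 0, at -0.17 (SE 0.16), and stood at 0.01 with the noncoding level described below as a covariate.

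In females 0 of 79 members were called by edgeR, beside 5.56% of all genes (1013 of 18204, of which 807 were lower in knock-in females). At an unadjusted p under 0.05 there were 19 members higher and 1 lower, beside 22.1% of all genes at that level (8.84% higher). DESeq2 called 4 (Rpl3, Rpl7, Rplp0 and Rps4x, all higher) beside 9.94% of all genes, with 23 at an unadjusted p under 0.05 (23.6% of all genes). limma-voom gave 17 at that level (22.4% of all genes). It called 0 members, with its share of all genes called not worked out. The median log2 change was 0.17, with 62 of 79 above 0, and the medians were 0.17 for the large and 0.25 for the small subunit. No member had all 4 knock-in females above all 5 5xFAD females, beside 12.9% of all genes whose female groups did not overlap in either direction.

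The member with the lowest p in females was Rpl3, whose values are given above. Knock-in female 1, at 466 CPM, lay inside the range of the 5xFAD females and the other 3 above it. The log2 change was 0.33 (SE 0.11, edgeR adjusted p = 0.0808). Rplp0 also had 3 of 4 knock-in females above all 5xFAD females (log2 change 0.33, SE 0.11, edgeR adjusted p = 0.0839).

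Rpl7, a large-subunit protein next to the 5S RNA, stood at 209, 194, 216, 181 and 217 CPM in 5xFAD females 1 to 5 and at 203, 249, 318 and 320.5 CPM in knock-in females 1, 2, 4 and 5. Rps4x, encoded on the X chromosome, stood at 194, 199, 205, 188 and 215 CPM in 5xFAD females and at 210, 261, 304 and 343 CPM in knock-in females, in the same order. In both, knock-in female 1 lay among the controls and the other 3 lay above them. The log2 changes were 0.42 (SE 0.14) for Rpl7 and 0.48 (SE 0.17) for Rps4x, with edgeR adjusted p of 0.0814 and 0.0925. Without knock-in female 1, edgeR called 7 members, among them Rpl3, Rpl7, Rpl10, Rplp0, Rps3a1 and Rps4x, beside 5.13% of all genes. Without knock-in male 10, which enters through the shared estimate of spread, the low-count filter and the scaling, it called 4, beside 6.88%.

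Rps6, the protein phosphorylated by the S6 kinases downstream of mTORC1, differed by 0.31 on the log2 scale in females (SE 0.12, edgeR adjusted p = 0.119). The largest positive values were those of Rps12 (0.55), Rpl10 (0.53) and Rpl39 (0.53), and the lowest those of Rpl12 (-0.54), Rpl36a (-0.26) and Rpl10a (-0.25). With counted copies added, Rpl36a came to 0.04 and Rpl10a to 0.18 in females. Rpl36a and Rpl39 are among the members that separated the 7 from the 12 libraries, and 3 of the 5 5xFAD females but 1 of the 4 knock-in females are among the 7.

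Some measures of the libraries moved with the female comparison. The noncoding level, the mean log2 CPM of 8 long noncoding RNAs that stay largely in the nucleus (Kcnq1ot1, Malat1, Meg3, Miat, Mirg, Neat1, Rian and Snhg11), was 6.16 to 7.08 in knock-in females and 7.999 to 8.38 in 5xFAD females. In males it ran from 7.12 to 8.496 in knock-in animals and from 6.41 to 8.25 in 5xFAD animals. In females 7 of the 8 RNAs were themselves called lower in knock-in animals by edgeR, beside 4.43% of all genes. With this level as a covariate, the median change of the members in females was 0.01, with 40 of 79 above 0, and in males it was 0.20. The level did not overlap between the female groups, so that level and genotype can hardly be told apart in that fit. Another such measure was the split by subunit ratio. Leaving out the 7 libraries kept only 2 5xFAD and 3 knock-in females, with 4 5xFAD and 3 knock-in males. The median was then 0.39 in females (78 of 79 above 0) and 0.33 over both sexes. Over both sexes 60 of 79 had an unadjusted p under 0.05, beside 15.9% of all genes. There 1 member, Rpl31, was called (log2 change 0.52, edgeR adjusted p = 0.0498), beside 0.695% of all genes. The members' own ratio chose the libraries left out. With the GC slope as a covariate the median was 0.26 in females and 0.09 in males. The part of each measure in the result was not tested further.

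In males 0 of 79 members were called by edgeR, beside 0% of all genes by edgeR. edgeR gave 7 at an unadjusted p under 0.05, all higher in knock-in males, beside 6.52% of all genes (3.39% higher). DESeq2 and limma-voom each gave 8 (7.35% and 6.45% of all genes). Both called 0 members, with their shares of all genes called not worked out. The median log2 change was 0.19, with 76 of 79 above 0 (0.20 for the large and 0.17 for the small subunit). No member had all 5 knock-in males above all 5 5xFAD males, beside 1.02% of all genes whose male groups did not overlap.

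Among the members at an unadjusted p under 0.05 in males, Rpl29 differed by 0.31 between the groups and Rpl30 by 0.36 (edgeR adjusted p = 0.715 and 0.717). Rps27 had the largest value in males, at 1.46 (SE 0.51, edgeR adjusted p = 0.702). Without knock-in male 6 it was 0.67, and with Rps27rt added it was 0.23. Rpl31 followed at 0.48 and Rpl37 at 0.43. The 3 members below 0 were Rpl10 (-0.24), Rps15a (-0.10) and Rpl5 (-0.06). With its copy Rpl10-ps3 added, Rpl10 came to 0.14.

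The interaction, the change in females minus that in males, was called for 0 of 79 members by edgeR, beside 0.308% of all genes by edgeR. DESeq2 and limma-voom also called 0 members, with their shares of all genes called not worked out. At an unadjusted p under 0.05 the tools gave 3, 5 and 2, beside 17.7%, 19.3% and 18.1% of all genes. The median was -0.02 and 37 of 79 were above 0. The 3 in edgeR were Rpl10 (0.78, SE 0.32, adjusted p = 0.21), Rpl12 (-0.70, SE 0.29, adjusted p = 0.21) and Rps27 (-1.64, SE 0.74, adjusted p = 0.259). With counted copies added, Rpl10 came to 0.15 and Rps27 to 0.04. Rps15a (0.39) and Rps4x (0.46) came next, and Rpl36a stood at -0.67.

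Rpl10 stood at 42.6, 68.0, 53.2, 47.3 and 54.5 CPM in 5xFAD females 1 to 5 and at 38.9, 79.2, 107 and 82.0 CPM in knock-in females 1, 2, 4 and 5. In 5xFAD males 6 to 10 it stood at 85.5, 69.8, 91.7, 64.8 and 55.6 CPM and in knock-in males 6 to 10 at 49.0, 55.1, 56.7, 91.3 and 58.0 CPM. It was thus higher in 3 of 4 knock-in females than in any 5xFAD female, while knock-in males spread over the range of 5xFAD males and below it. Rpl12 stood at 22.9, 15.5, 13.8, 15.3 and 9.55 CPM in 5xFAD females and at 13.0, 7.48, 10.7 and 11.2 CPM in knock-in females, in the same order, and the groups overlap.

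Sexes were compared within each genotype. In 5xFAD animals 0 of 79 members were called by edgeR, beside 0.0385% of all genes by edgeR. DESeq2 and limma-voom also called 0, with their shares of all genes called not worked out. At an unadjusted p under 0.05 edgeR, DESeq2 and limma-voom gave 2, 2 and 1 (11.1%, 12% and 11.4% of all genes). The median female minus male difference was 0.03. Rpl10 was 1 of the 2 in edgeR, at -0.47 (adjusted p = 0.443). Rpl36a (0.52), Rpl31 (0.42) and Rpl27 (0.40) had the largest differences, and all 3 are members that separated the 7 libraries, of which 5xFAD females held 3 and 5xFAD males 1. Without the 7 libraries Rpl31 came to -0.03 and Rpl27 to -0.01.

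In knock-in animals 0 of 79 members were called by edgeR, beside 0.0494% of all genes by edgeR. DESeq2 and limma-voom also called 0, again without their shares of all genes called. At an unadjusted p under 0.05 the 3 tools gave 1, 1 and 0 (14.4%, 15.7% and 14.1% of all genes). The median difference was 0.00. The 1 member was Rps27 (-1.28, edgeR adjusted p = 0.284), which came to -0.48 without knock-in male 6. Rpl12 followed at -0.43 (edgeR adjusted p = 0.368) and Rpl3 at 0.17 (edgeR adjusted p = 0.546).

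Genes around the ribosome were read from lists in the same fits. Cytosolic ribosomal proteins outside the name pattern (such as Rack1, Fau, Rpl22l1 and Rps27rt) were above 0 in 6 of 6 over both sexes, with a median of 0.16. None was called by edgeR there, beside 0.022% of all genes. Rack1, a scaffold on the small subunit, stood at 195 ± 32.9 CPM in knock-in females (SD, n = 4) and 157 ± 6.11 CPM in 5xFAD females (SD, n = 5). Its change was 0.31 (SE 0.13, edgeR adjusted p = 0.167).

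Of 39 translation factors and other TOP RNAs, 3 rose in females and none fell, beside 1.13% of all genes called higher there. Their median change was 0.23 in females and -0.02 in males. Eef1a1, which brings aminoacyl-tRNA to the ribosome, rose from 2198 ± 153 CPM in 5xFAD females (SD, n = 5) to 3092 ± 577 CPM in knock-in females (SD, n = 4), or by 0.49 on the log2 scale (SE 0.14, edgeR adjusted p = 0.037). Tpt1, a further abundant TOP RNA, rose from 295 ± 20.5 to 394 ± 65.3 CPM (0.42, SE 0.12, edgeR adjusted p = 0.0495). Eif2s3x, the X-linked gamma subunit of initiation factor eIF2, rose from 161 ± 7.75 to 209 ± 14.96 CPM (0.37, SE 0.09, edgeR adjusted p = 0.0224). When the noncoding level entered the fit, the 3 values were 0.31 for Eef1a1, 0.38 for Tpt1 and 0.25 for Eif2s3x, and none was called (edgeR adjusted p = 0.9999 for each). Since that level did not overlap between the female groups, nothing is read from the loss of these calls. The calls were also lost without single libraries: all 3 without knock-in female 2 or 4 or 5xFAD female 1, Eef1a1 and Tpt1 also without knock-in female 5 or 5xFAD female 2 or 4, and Tpt1 also without 5xFAD female 5, 5xFAD male 7 or knock-in male 6 or 8. Without knock-in female 4 the adjusted p was 0.133, 0.151 and 0.0808 by edgeR, in the same order. The interaction was called for 0 of the 39 by edgeR, beside 0.308% of all genes, with a lowest adjusted p of 0.0553. At an unadjusted p under 0.05 there were 10, beside 17.7% of all genes.

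Genes that build and regulate ribosomes had medians near 0. The 62 nucleolar assembly and polymerase I genes had a median of -0.00 over both sexes and 0.04 in females. In females 1 of them fell, Mdn1, the large AAA ATPase of 60S maturation, at -1.03 (SE 0.28, edgeR adjusted p = 0.0363). The 24 genes of mTORC1 and TOP control had a median of 0.01 over both sexes. In females 1 fell, Rps6kb2, an S6 kinase, at -1.13 (SE 0.24, edgeR adjusted p = 0.0122). Both falls stand beside 4.43% of all genes called lower in females. When the noncoding level entered the fit they were -0.18 and -0.13 and not called (edgeR adjusted p = 0.9999 for each). Nothing is read from that loss either, as the female groups did not overlap in that level. Both calls were lost without knock-in female 2 or 4, and that of Mdn1 also without knock-in female 5 or 5xFAD female 1, 2, 4 or 5 (adjusted p of 0.0589 to 0.155 for Mdn1, and 0.0574 and 0.0714 for Rps6kb2, by edgeR).

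Other gene lists were read for comparison, without matching them to the members in level. The 78 mitochondrial ribosomal protein genes had a median of 0.07 over both sexes, 0.03 in females and 0.07 in males. The 53 nuclear genes of the respiratory chain had medians of 0.10, 0.00 and 0.19. In these comparisons 0 of either list were called by edgeR, beside 0.022%, 5.56% and 0% of all genes. None of these differences between lists was tested.

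**Figure D5:**
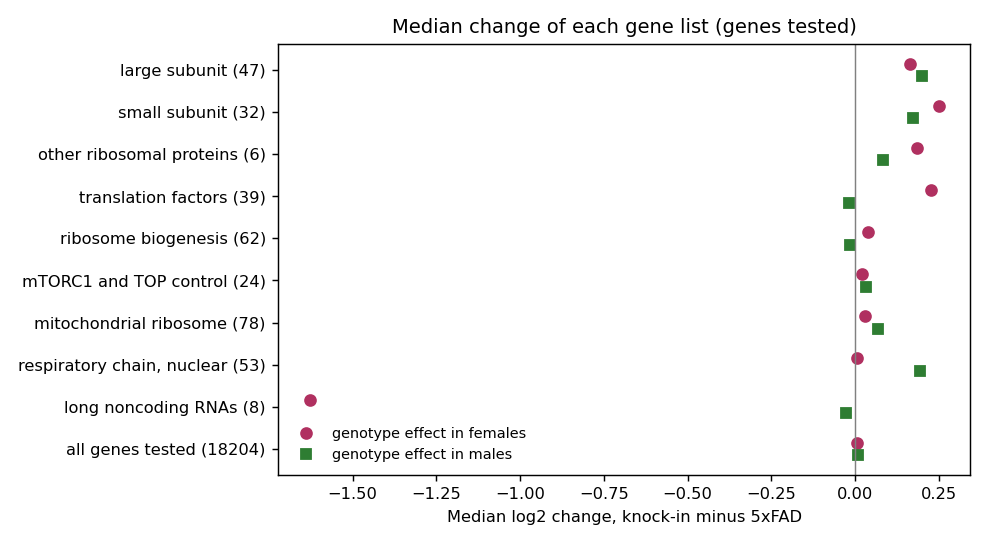
Median log2 change from 5xFAD to knock-in (x axis) of the members by subunit, of the other lists and of all genes tested (y axis, with the number of genes tested), in females (circles) and males (squares). The large- and small-subunit medians lie between 0.17 and 0.25 in both sexes, those of translation factors at 0.23 in females and -0.02 in males, and those of long noncoding RNAs at -1.63 and -0.03.

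Markers of other cells were read beside the genotype comparison. All 10 microglia markers were above 0 over both sexes, with a median of 0.40. At an unadjusted p under 0.05 there were 10, beside 11.9% of all genes (6.15% higher). None was called by edgeR, beside 0.022% of all genes. Their summed level ran from 628 to 1046 CPM in 5xFAD and from 839 to 1398 CPM in knock-in animals. All 5 erythrocyte markers were above 0, with a median of 0.64, and 3 rose in females, beside 1.13% of all genes called higher there. Their sum ran from 100.2 to 232 CPM in 5xFAD and from 142 to 355 CPM in knock-in animals. No marker of either list was at 0 in a library.

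All 8 astrocyte markers were also above 0 over both sexes, with a median of 0.21. None was called by edgeR over both sexes, beside 0.022% of all genes. At an unadjusted p under 0.05 there were 6, beside 11.9% of all genes (6.15% higher). In females the median of the 8 was 0.34 and 2 rose, beside 1.13% of all genes called higher. These were Gfap, the intermediate filament of astrocytes (0.59, edgeR adjusted p = 0.0265), and Aqp4, a water channel of their endfeet (0.54, edgeR adjusted p = 0.0403). The sum of the 8 did not overlap between the female groups, with 4544 to 5238 CPM in 5xFAD and 5846 to 6862 CPM in knock-in females, and overlapped in males (4736 to 5617 and 5116 to 6190 CPM). Over both sexes, oligodendrocyte markers were above 0 in 8 of 8 (median 0.19) and endothelial markers in 7 of 8 (0.16). Choroid plexus markers were so in 10 of 10 (0.93), ependymal markers in 6 of 6 (0.23) and neuronal markers in 2 of 8 (-0.06). None of these was called by edgeR, beside 0.022% of all genes. The part of these cells in the members' values was not tested.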

How the data were processed

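Counts per gene were analysed for 19 libraries. Build mm39 and the tools Salmon, FastQC, Seurat and DESeq2 are named per the submitters' processing notes, without versions or order. The authors deposited estimated counts as whole numbers, normalized counts (a signal scaled by the authors per gene and library) and variance-stabilized log2 values. The log2 values entered no test here. Symbols, lengths, GC content and 31-mers came from GENCODE M21 (GRCm38) for 20023 of 20655 gene IDs, and promoters from RefSeq. The build differs from the authors', so no coordinate is tied to the counts.

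The tests used robust quasi-likelihood fits of edgeR 4.0.16 (R 4.3.3) with TMM scaling. 18204 genes passed filterByExpr on the 4 groups (at least 10 counts), and p was adjusted over all of these by Benjamini-Hochberg, with a threshold of 0.05. The genotype effect had sex as a covariate. The other comparisons came from 1 model with a mean per group over all libraries. The code was tested on simulated data. SE is the log2 change over the square root of F. Mean levels are log2 CPM with a prior count of 2. P-values measure the spread between animals of one group, since each library is 1 animal.

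Members and lists were chosen with earlier results of these data known. Named members are, per comparison, the 5 with the lowest p and the 3 largest changes each way, the 5 most and least abundant per length, paralogues, and those of largest and smallest spread, and up to 3 genes of each other list. Fau, Rpl15 and members that separate the libraries were named after their values were seen. Some genes that the rule names are not reported here. Alternatives were DESeq2 1.42.0, limma-voom (limma 3.58.1), other scalings (DESeq2 size factors, library size, member counts), no filter or at least 1 CPM in 4 libraries, the noncoding level as a covariate, limma on log2 of the deposited normalized counts plus 1, a replicate block, and each library left out. Copies added were counted genes on another chromosome that are not members. They shared at least 20% of the member's 31-mers, and these made up at least 20% of their own. Counted genes that share 31-mers but miss these limits were not added. Copies added, the GC slope (genes above a mean of 5 log2 CPM) and leaving out the 7 libraries were chosen after seeing the data.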

Additional observations from a re-analysis of the deposited data

Results flagged for a closer look

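Within each group of 4 or 5 libraries, the highest and lowest values were set against the range of their group for 39 measures (named members, subunit levels, the share of counts and the subunit ratio), 156 sets of values in all. By Dixon's test, which by chance marks about 1 in 20 such sets, 6 values in 5 libraries were marked. Their share of the 156 sets is below that rate, so they are listed only for a closer look. The large to small subunit ratio of knock-in female 1 was 1.59, with the next of its group at 1.42. The small-subunit level was 7.20 log2 CPM in 5xFAD female 1 (next 6.90) and 7.24 in 5xFAD male 9 (next 6.89). Rpl10 stood at 91.3 CPM in knock-in male 9 (next 58.0). Rplp1 stood at 481 CPM in 5xFAD female 1 (next 372). Rps27 stood at 55.0 CPM in knock-in male 6 (next 13.9), where its copy Rps27rt was lowest.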

How the results depend on the processing

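Of 380 values for counts of members called and for median changes under the alternatives, 374 stayed within the limits set: a count within 1.5 times, or a median moved by less than 0.205, the pooled SD of the members' mean level. The exceptions were these. In females, 4 members were called with DESeq2, and 0 to 7 as each library was left out (7 without knock-in female 1 and 4 without knock-in male 10). The median change in females was -0.035 when scaled to the member counts, by construction near 0. It was 0.39 without the 7 libraries of high subunit ratio, which left 2 5xFAD and 3 knock-in females. Over both sexes 1 member was called without those 7. The medians over single libraries left out were 0.15 to 0.24 for the genotype effect, 0.08 to 0.25 in females and 0.11 to 0.27 in males. Within these limits the female median still came to 0.01 with the noncoding level as a covariate, a level that did not overlap between the female groups. Medians near 0 changed sign. That of the interaction did so in 11 of 32 alternatives (0.17 with the GC slope, 0.12 without the 7 libraries, 0.06 with the deposited normalized counts and 0.02 without a filter, and 7 with single libraries left out). That of the sexes in 5xFAD did so in 5 of 31 (-0.13 with the GC slope, -0.10 without the 7 and -0.04 with the deposited normalized counts, and 2 with libraries left out). That of the sexes in knock-in animals did so in 6 of 31 (-0.11 with the noncoding level, -0.05 with library size only and -0.03 scaled to the member counts, and 3 with libraries left out).

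Single members turned sign as follows, and the cause was not tested. With the noncoding level as a covariate, Rpl12 over both sexes was 0.014 and Rps27l between the sexes in knock-in animals -0.078. With copies added, the values in females were 0.037 for Rpl36a and 0.18 for Rpl10a, that of Rpl10 in males was 0.14 and the interaction of Rps27 was 0.038. With the GC slope, Rpl36a was 0.15 in females, 0.21 in the interaction and -0.078 between the sexes in 5xFAD, and Rpl5 in males was 0.028. Without the 7 libraries, Rpl36a was 0.21 and Rpl10a 0.085 in females, Rpl5 in males was 0.080, and between the sexes in 5xFAD Rpl31 was -0.028 and Rpl27 -0.014. Rpl5 in males was 0.00019 with the deposited normalized counts and -0.12 to 0.020 as single libraries were left out, above 0 without knock-in male 6, knock-in male 10 or 5xFAD male 6.

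With the replicate number as a block, 0 members were called for the genotype effect over both sexes, in either sex or in the interaction. The share of all genes called in that fit was not worked out. The median genotype effect over both sexes was then 0.17. The calls of Eef1a1, Tpt1, Eif2s3x, Mdn1 and Rps6kb2 in females were lost under the block. They were also lost without the 7 libraries and with the noncoding level as a covariate, a level that did not overlap between the female groups. Scaled to the member counts, those of Eef1a1, Tpt1, Eif2s3x and Mdn1 were lost. Eef1a1 and Tpt1 were lost with library size only (edgeR adjusted p = 0.0618 and 0.0983) and with the GC slope (0.05002 and 0.0664), Tpt1 with limma-voom (0.0609) and Mdn1 with the deposited normalized counts (limma adjusted p = 0.112). The numbers do not pair the animals: of 9 pairs, correlations of deviations ran from -0.20 to 0.12, 2 were over 0.1, and 2 of 18 samples correlated best with their own number. Sex effects could not be fitted with the block.

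The spread between animals, with 4 or 5 in each group, limits these comparisons.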
